A study of Mus musculus with 12 samples.

Results

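The cells described here were annotated as dendritic cells in mouse mammary tumours and carried little Ccr7, the chemokine receptor that dendritic cells use to travel to lymph nodes. They were the cells that the authors' deposited annotation called DC in the CD45-enriched libraries and that held fewer than 2 unique molecules (UMIs) of Ccr7 and Fscn1 together. The rule took 564 of 1498 annotated dendritic cells, among 54955 cells of the 6 CD45-enriched libraries and 115612 cells of all 12 libraries. Of the 564, 92 were called doublets by the Scrublet method and left out, so that the values below rest on 472 cells. The share called differed between the libraries, as given below. Of these, 367 had 0 and 105 had 1 UMI of Ccr7 plus Fscn1. On the other side of the limit, 68 dendritic cells had 2 UMIs, 43 had 3, and 718 had 4 or more. The Ccr7 and Fscn1 UMIs and the annotation chose the cells, which were thus selected on these values, so the low levels of both genes are no finding.

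The tumours were grown in the mammary fat pad of female BALB/c mice of 9 to 11 weeks, from parental 4T1, a mouse mammary carcinoma cell line, or from 1 of 5 single-cell clones of it named Clone E, EM1, EM2, EM3 and M. The clones were taken to stand for epithelial, intermediate and mesenchymal states of the epithelial to mesenchymal transition (EMT), in which carcinoma cells lose epithelial and gain mesenchymal traits. Each group is 1 tumour, each state is carried by single clones, and all tumours share the 4T1 origin. Every tumour gave 1 library of all cells (Total) and 1 of cells enriched with CD45 magnetic beads after digestion with collagenase A and hyaluronidase. No difference between tumours therefore has a replicate check. Intervals given for levels and shares are 95% exact Poisson or exact binomial (Clopper-Pearson) intervals, and they cover counting error only.

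Conventional dendritic cells take up antigen in tissue and present it to T cells. The cDC1 type, which bears the chemokine receptor Xcr1 and the dead-cell receptor Clec9a, is known for presenting cell-derived antigen on MHC class I to CD8 T cells. The cDC2 type, marked in mice by the lectins Cd209a and Mgl2, is known for presenting on MHC class II to CD4 T cells. On activation both types raise Ccr7 and Fscn1 and leave the tissue. In GRCm38.p6 (mm10) Xcr1 lies on chromosome 9 at 123852315 to 123862029, Clec9a on chromosome 6 at 129408862 to 129424764, Cd209a on chromosome 8 at 3743395 to 3748984 and Mgl2 on chromosome 11 at 70130125 to 70137542. Clec10a, a close relative of Mgl2, lies beside it on chromosome 11 at 70166623 to 70170836, and reads that fit both genes could have been split by the authors' counting.

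The 6 CD45-enriched libraries held 28083101 to 57116299 UMIs each. Values for the 6 tumours are given in the order Clone E, EM1, EM2, EM3, M, parental 4T1 wherever a sentence lists 6 of them without names. The median member had 5180, 3325.5, 3388, 5475, 6129 and 4104.5 UMIs, so a cell of M had more chance of showing a marker than a cell of EM1. Droplet barcodes were shared by 12.2% to 19.1% of the smaller library in 14 pairs of libraries and by 0.686% to 1.91% in the other 52 pairs. Those 14 pairs place the libraries of Clone E with those of EM3 and the libraries of EM1 with those of EM2, while M and parental 4T1 each stood alone. For M against E and for parental 4T1 against M, the clone and this set of libraries cannot be told apart. EM3 against E and EM1 against EM2 compare libraries of the same set.

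The annotation as dendritic cells fitted the markers only in part. Flt3, the growth factor receptor of dendritic cells, was at 18.8, 41.5, 23.5, 22.1, 39.3 and 45.4 CPM (counts per 1e6 UMIs of the summed cells) in the members of Clone E, EM1, EM2, EM3, M and parental 4T1, against 0.1 to 0.3 CPM in macrophages. Zbtb46, a transcription factor of conventional dendritic cells, was at 39.0 to 90.8 CPM against 1.1 to 2.1 CPM in macrophages. Siglech, a receptor of plasmacytoid dendritic cells, stayed between 0 and 4.7 CPM. The complement gene C1qa, made by macrophages, was however at 1990, 2336, 1782 and 2174 CPM in Clone E, EM1, EM2 and EM3, and at 280 and 798 CPM in M and parental 4T1. In the Total libraries, where the same rule kept 200 cells, C1qa was at 78.7 to 289.8 CPM. Both dendritic cell and macrophage transcripts were thus counted in the members of the CD45-enriched libraries, and the name conventional dendritic cell rests on the annotation for many of them.

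The members made up about 1 in 100 CD45-enriched cells, most in Clone E and least in Clone M. They were 1.32%, 0.650%, 1.08%, 0.994%, 0.440% and 0.539% of these cells, from Clone E to parental 4T1. Doublet calls had taken out 10 of 150, 23 of 83, 23 of 119, 26 of 133, 4 of 37 and 6 of 42 members, and 2 of 202 in the Total libraries. With doublets kept, members were 150 of 10894, 83 of 9506, 119 of 9145, 133 of 11024, 37 of 7595 and 42 of 6791 cells. Clone E was still highest and M lowest there, but E stood closer to EM2 and EM3. With doublets left out, the share in M was below that in E by 0.881 percentage points (M minus E −0.881, interval −1.15 to −0.607). The Total libraries gave −0.346, and after enrichment it was −0.387 with C1q-bearing cells (3 or more UMIs of C1qa, C1qb and C1qc together) taken out of the members only, −0.787 with them taken out of all cells, and −0.167 for cells that a second deposited label, from SingleR, also called DC. Granulocytes were 50.7% of the CD45-enriched cells of M and at most 27.4% in the others. With granulocytes left out of the denominator the shares were 1.75%, 0.766%, 1.22%, 1.37%, 0.892% and 0.718% in the same order, so that M no longer stood lowest. Among immune cells of the Total libraries the members were 0.609%, 0.525%, 0.886%, 0.554%, 0.263% and 0.289%, and M was lowest again, but with granulocytes left out it was at 0.510%, above parental 4T1 at 0.338%.

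Among dendritic cells of all 6 tumours 36.3% (interval 33.7 to 39.0) were low in Ccr7 and Fscn1. By tumour the share was 46.1%, 33.3%, 30.9%, 39.1%, 35.9% and 25.7%. Clone E (40.3 to 51.8) and parental 4T1 (18.7 to 33.8) had intervals that did not overlap, nor did those of E and EM2 (25.8 to 36.3), and that of M (26.1 to 46.5) overlapped all others. The Total libraries gave a share of 30.2% (26.7 to 33.9). When dendritic cells were thinned to 1000 UMIs each, 54.5% fell under the limit, so the share moves with depth.

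To describe the cDC1 and cDC2 content, a member was called cDC1-marked when it held at least 2 UMIs of Xcr1 plus Clec9a and more of these than of Cd209a plus Mgl2, cDC2-marked in the reverse case, and unmarked otherwise. The 472 members split into 125 cDC1-marked, 124 cDC2-marked and 223 unmarked cells. Clone E had 31 cDC1-marked, 34 cDC2-marked and 75 unmarked cells. Clone EM1 had 18, 14 and 28, Clone EM2 had 31, 20 and 45, and Clone EM3 had 24, 36 and 47. Clone M had 14, 4 and 15, and parental 4T1 had 7, 16 and 13. By these markers M had the most cDC1-marked cells for each cDC2-marked one and parental 4T1 the fewest. Clusters of the members, described further on, gave 21 cDC1-like and 9 cDC2-like cells in M, but 17 and 15 in parental 4T1, so that its lean to cDC2 did not hold there. This depends on 1 cluster whose cDC1 markers were just above the limit for a name (0.51 against 0.5). It held 10 of the 17 cDC1-like cells of parental 4T1 and 9 of the 21 of M. Of the cDC1-like and cDC2-like cells together, M exceeded parental 4T1 in the cDC1-like share by 16.9 percentage points (−9.44 to 40.8).

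**Figure D1:**
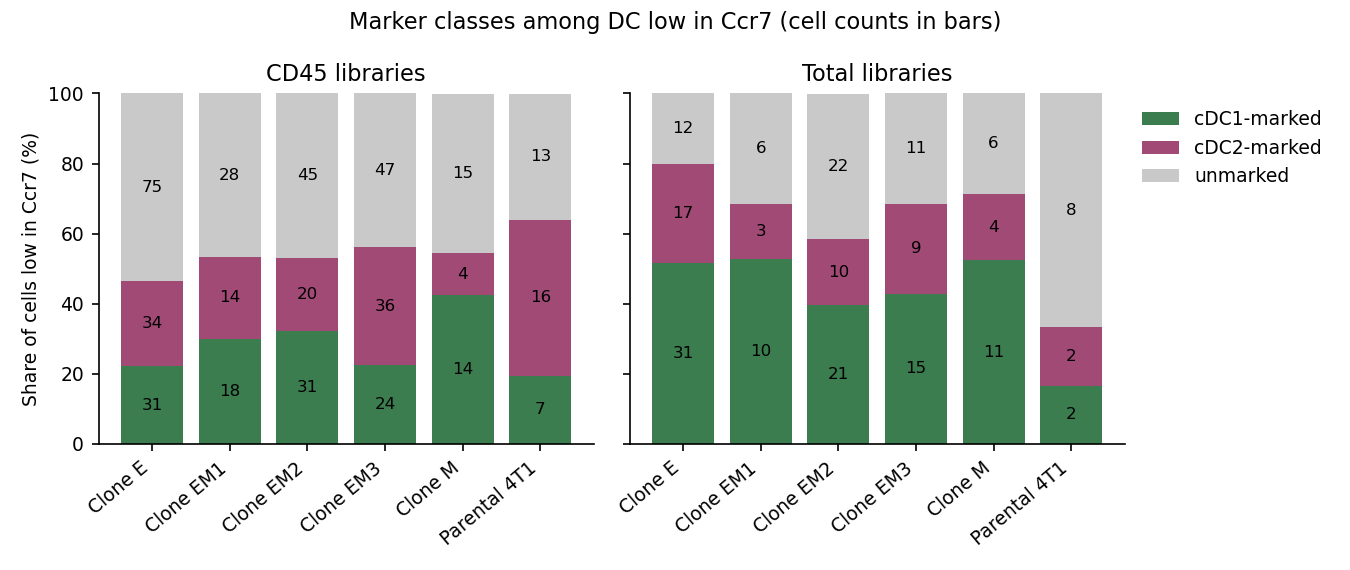
Members of each tumour that were cDC1-marked, cDC2-marked or unmarked, in the CD45-enriched and the Total libraries, with the cell numbers. Clone M held 14 cDC1-marked and 4 cDC2-marked cells in the CD45-enriched library and parental 4T1 held 7 and 16.

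Of the marked cells, cDC1-marked ones were 77.8% (52.4 to 93.6) in Clone M, 60.8% (46.1 to 74.2) in EM2, 56.3% (37.7 to 73.6) in EM1, 47.7% (35.1 to 60.5) in E, 40.0% (27.6 to 53.5) in EM3 and 30.4% (13.2 to 52.9) in parental 4T1. M exceeded parental 4T1 by 47.3 percentage points (13.4 to 70.7) and E by 30.1 (1.65 to 50.3). The intervals of the shares themselves overlapped for every pair of tumours. The difference between M and E had an interval that included 0 with cells thinned to 1000 UMIs (4.29, −35.9 to 52.7), without C1q-bearing cells (21.0, −9.83 to 44.0) and in the Total libraries (8.75, −22.6 to 32.9). That between M and parental 4T1 was 41.7 (2.30 to 69.5) without C1q-bearing cells and 23.3 (−28.4 to 70.5) in the Total libraries. A value at equal depth is not given for this pair, whose members had a median of 6129 and 4104.5 UMIs. The Total libraries gave 64.6%, 76.9%, 67.7%, 62.5% and 73.3% for the clones and 2 of 4 cells for parental 4T1, and over all 6 tumours 66.7% (58.0 to 74.5) against 50.2% (43.8 to 56.6) after enrichment. Parental 4T1 was lowest in both kinds of library, with few cells in both.

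Few cells of other types met these limits for cDC1, but many macrophages met those for cDC2. Among T cells 10 of 9850 were cDC1-marked and 15 of 9850 cDC2-marked, and among B cells 1 and 2 of 1842. Among macrophages 38 of 23865 were cDC1-marked and 4585 of 23865, or 19.2%, cDC2-marked. The cDC2-marked share of members, 26.3%, stood close to that of macrophages, whereas the cDC1-marked share, 26.5%, stood above the 0.159% of macrophages. At 1000 UMIs a cell, 7.69% of members were cDC1-marked and 15.4% cDC2-marked, against 0.00842% and 3.63% of macrophages. In all, 53 of the 472 members held UMIs of both marker pairs.

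As a share of CD45-enriched cells, cDC1-marked members were 0.293%, 0.195%, 0.348%, 0.223%, 0.187% and 0.105%. The cDC2-marked members were 0.321%, 0.152%, 0.224%, 0.334%, 0.0534% and 0.239%. Clone M was thus lowest in cDC2-marked and parental 4T1 in cDC1-marked cells. With granulocytes left out, cDC1-marked members of M were 0.379%, near the 0.387% of E and the 0.395% of EM2. The cDC2-marked members of M were still lowest at 0.108%, against 0.179% to 0.461% in the others. Among immune cells of the Total libraries parental 4T1 was lowest in cDC2-marked cells at 0.0482%, on 2 cells, and M, on 4 cells, stood just above it.

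The summed levels of the 4 markers are given as a description, since UMIs of the same genes cut the classes. Xcr1 was at 97.3, 186.7, 176.3, 178.0, 201.4 and 64.9 CPM. Clec9a was at 170.0, 224.1, 181.0, 226.1, 265.2 and 103.8 CPM. After enrichment both were highest in M and lowest in parental 4T1. The Total libraries gave 260.1, 236.0, 189.8, 332.8, 170.0 and 134.9 CPM for Xcr1 and 537.8, 550.7, 299.6, 402.5, 200.9 and 134.9 CPM for Clec9a. There parental 4T1 was again lowest, but M stood next to it and not at the top. The median log2 ratio of M over E for these 2 genes was 0.65 after enrichment, −0.86 in the Total libraries and −0.02 without C1q-bearing cells, so the lead of M over E did not hold in either. EM3 over E was at 0.48 after enrichment, 0.55 without C1q-bearing cells and −0.04 in the Total libraries. In macrophages Xcr1 did not pass 1.4 CPM and Clec9a did not pass 3.3 CPM.

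The cDC2 markers ran the other way at these ends. Cd209a was at 56.3, 45.6, 47.0, 71.5, 24.6 and 168.6 CPM in Clone E, EM1, EM2, EM3, M and parental 4T1. Mgl2 was at 539.2, 560.1, 270.3, 666.7, 206.3 and 888.6 CPM. Both were lowest in M and highest in parental 4T1. Mgl2 is not confined to dendritic cells, with 76.8 to 285.4 CPM in macrophages, while Cd209a there was at 1.0 to 2.8 CPM. The Total libraries also had Cd209a lowest in M (69.6 CPM) and highest in parental 4T1 (157.4 CPM), and Mgl2 was lowest in M (154.6 CPM) and highest in EM3 (746.1 CPM).

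**Figure D2:**
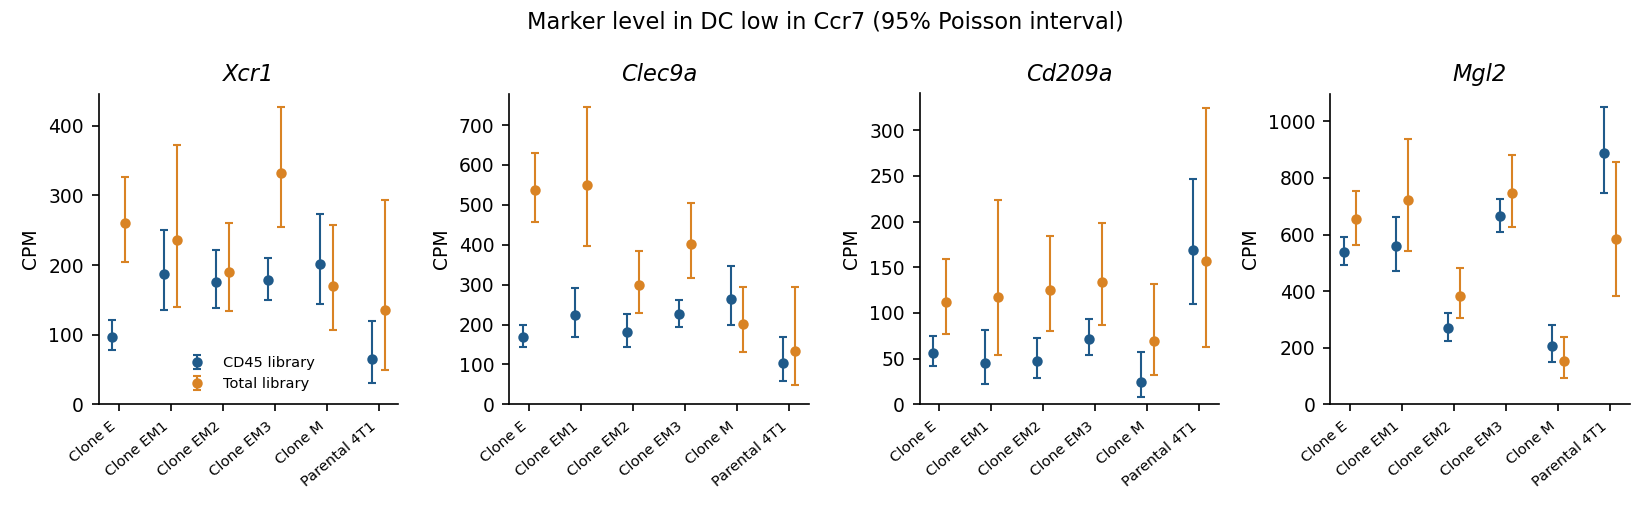
Level of Xcr1, Clec9a, Cd209a and Mgl2 in CPM in the members of each tumour, with exact Poisson intervals, in both kinds of library. In the CD45-enriched libraries Xcr1 and Clec9a are highest in Clone M and Cd209a and Mgl2 highest in parental 4T1.

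Transcripts of macrophages and T cells moved with the classes and with the tumours. Of the cDC1-marked cells 19 of 125 held 3 or more UMIs of C1qa, C1qb and C1qc together, of the cDC2-marked cells 53 of 124, and of the unmarked cells 105 of 223. By tumour the cDC2-marked cells with such UMIs were 11 of 34, 6 of 14, 6 of 20, 24 of 36, 0 of 4 and 6 of 16. In the Total libraries 10 of 45 cDC2-marked, 11 of 90 cDC1-marked and 4 of 65 unmarked cells held them, against 18233 of 23865 macrophages and 212 of 1842 B cells, which should lack C1q and were shallower, after enrichment. With each cell thinned to 1000 UMIs, at least 1 C1q UMI was in 22.6% of cDC1-marked, 53.3% of cDC2-marked and 57.1% of unmarked cells, in 43.0% of all members and in 48.4% of B cells. This thinning kept 442 of 472 members and 988 of 1842 B cells, those deep enough. Pooled over all 6 tumours, cDC2-marked and unmarked cells thus stood above the kept B cells and cDC1-marked cells below them. Within tumours, cDC2-marked cells were above B cells only in EM1 and EM2. They were below them in E (36.4% against 48.4%), EM3, M (4 cells) and parental 4T1 (68.8% against 72.3%). Unmarked cells were above B cells in E (70.6%), EM1 and M and below them in EM2, EM3 and parental 4T1 (36.4%). The cDC1-marked cells were below B cells in every tumour. In EM1 all members were at 41.1% against 36.3%. The 12 macrophage markers summed to 23318, 18356, 15145, 20915, 3728 and 5961 CPM in the members of Clone E, EM1, EM2, EM3, M and parental 4T1, and to 800 to 2091 CPM in the Total libraries. B cells held 2720 to 7704 CPM of the macrophage markers after enrichment. M and parental 4T1 were low in macrophage RNA beside the other 4, and the part of that RNA in the differences between tumours was not tested beyond the values without C1q-bearing cells.

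UMIs of T cell genes were also counted in the members. At least 2 UMIs of Cd3d, Cd3e and Cd3g were in 1 of 125 cDC1-marked, 15 of 124 cDC2-marked and 40 of 223 unmarked cells, in 0 of 200 members of the Total libraries and in 41 of 1842 enriched B cells. The enriched members of Clone E held 26 of the 56 such cells. Cd3e, a chain of the T cell receptor complex, was at 72.7, 58.1, 28.2, 35.1, 0 and 6.5 CPM in the 6 tumours. At least 10 UMIs of S100a8 and S100a9, genes of granulocytes, were in 54 of 472 members, 30 of them in Clone E and 18 in EM3, in 4 of 200 in the Total libraries and in 55 of 1842 B cells. Summed, the T cell markers had a median over tumours of 319 CPM in members and 469 CPM in B cells, and the granulocyte markers 1526 and 3776 CPM, so the members did not exceed B cells in these summed levels. The SingleR label called 113 of 125 cDC1-marked cells DC, but only 24 of 124 cDC2-marked and 61 of 223 unmarked cells; it called 86 and 126 of these macrophages.

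**Figure D3:**
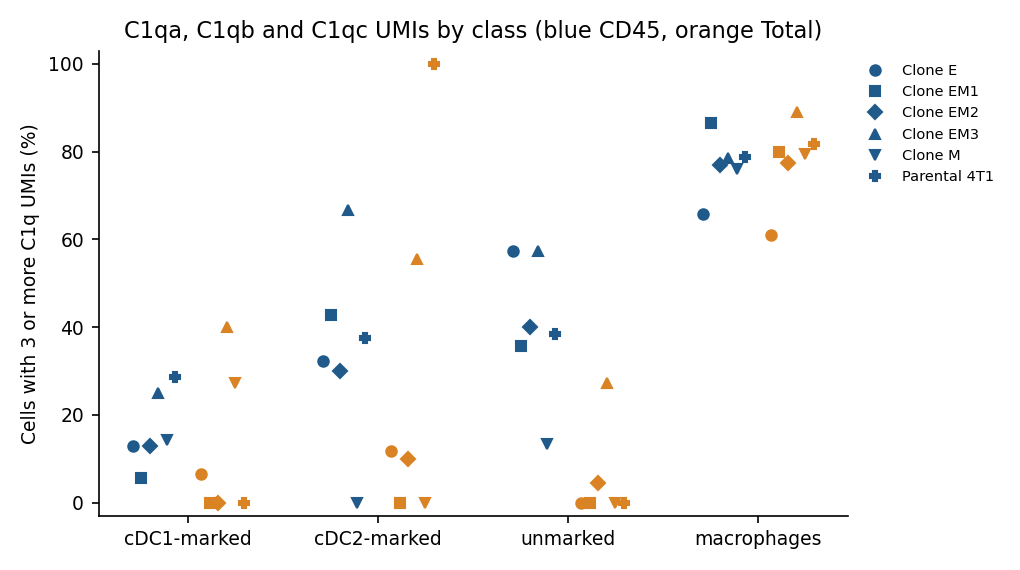
Share of members of each class that held 3 or more C1q UMIs, and of macrophages (y axis, percent), with 1 symbol per tumour, blue for CD45-enriched and orange for Total libraries. Over the CD45-enriched libraries 19 of 125 cDC1-marked, 53 of 124 cDC2-marked and 105 of 223 unmarked cells held them.

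Clustering the members without the listed genes gave 8 clusters. Those named cDC1-like held 205 cells (43.4%), cDC2-like 124 (26.3%), macrophage-like 107 (22.7%) and an unnamed cluster led by heat shock genes 19 (4.03%). A cluster of 17 cells (3.60%) was granulocyte-like by the naming rule, but that name is not used here. Its granulocyte genes came mostly from 1 cell, with 85.6% of the S100a8 and 98.8% of the Ngp UMIs. Its other leading genes were Vcam1, Chil3, Thy1 and Ccl5. Its T cell markers (mean log2 ratio 1.24), macrophage markers (1.11) and monocyte markers (0.61) also passed the limit of 0.5 for a name. Elsewhere too, markers other than those of the name passed it. They were monocyte (0.60) and mature dendritic cell markers (0.55) in the cDC2-like cluster, whose cDC2 markers were at 1.54. Granulocyte markers (0.64) passed in a cDC1-like cluster of 41 cells and T cell markers (0.71) in a macrophage-like cluster of 50. The cDC2-like cluster held 69 cDC2-marked and no cDC1-marked cells. The other cDC2-marked cells lay in the macrophage-like clusters (11 and 17), the cDC1-like clusters (14, 3 and 2), the heat shock cluster (7) and the cluster of 17 cells (1). The cDC2-marked class was thus only in part cDC2-like by clusters. One cDC1-like cluster, of 41 cells, was led by cell division genes such as Top2a and Mki67. The macrophage-like share was 28.6%, 25.0%, 11.5%, 33.6%, 6.06% and 8.33%. The cDC1-like cells include a cluster of 81, of which 51 were unmarked, whose cDC1 markers had a mean log2 ratio of 0.51, just above the limit of 0.5 for a name, so the cDC1-like total depends on that limit. A macrophage-like cluster of 57 cells, 30 of them from Clone E, stood near it too, with a mean log2 ratio of 0.56 for macrophage markers. Of the 17 cells in the cluster led by Vcam1, 15 came from Clone E. These names were rebuilt from marker lists and are not the authors' own.

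The tumours served as replicates for only 1 comparison, between the cDC1-marked and cDC2-marked members of the same tumour. Of 2080 genes tested with edgeR's quasi-likelihood test and the tumour as a block, 290 (13.9%) were higher and 305 (14.7%) lower in cDC1-marked cells at a Benjamini-Hochberg adjusted p under 0.05. The 4 genes that cut the classes, Ccr7 and Fscn1 were not among them. Of the 290, 219 were higher in all 6 tumours, and of the 305, 204 were lower in all 6. Clone M entered with only 4 cDC2-marked cells. Without C1q-bearing cells 137 genes were higher and 158 lower, and of the genes called with all cells 128 and 137 were among them. The smaller Total libraries gave 45 and 51.

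The other genes known for cDC1 rose together in cDC1-marked cells. Of 20 listed, 10 were tested and all 10 rose, with a median log2 difference of 2.17 against −0.00 over all genes tested. Irf8, the transcription factor that cDC1 depend on, was at 967 to 2108 CPM in cDC1-marked and 138 to 620 CPM in cDC2-marked cells, with no overlap (log2 2.13 ± 0.21 SE, edgeR adjusted p = 8.06e-06). Cadm1, a cell adhesion molecule, was at 217 to 528 against 0 to 137 CPM. Wdfy4, needed for cross-presentation, was at 435 to 806 against 0 to 213 CPM. Itgae, the integrin chain CD103, was at 853 to 1201 against 0 to 298 CPM. Ifi205 rose by 1.54 but was higher in only 4 of 6 tumours. Without C1q-bearing cells 8 of 9 listed genes rose (median 1.89), and in the Total libraries 7 of 9 (median 2.17).

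The other cDC2 genes were lower in cDC1-marked cells, and so were macrophage genes. Of 20 listed cDC2 genes 8 were tested and 7 fell, with a median log2 difference of −3.13. Sirpa, the receptor for CD47, was at 0 to 82.1 CPM in cDC1-marked and 277 to 462 CPM in cDC2-marked cells (log2 −3.11 ± 0.40, edgeR adjusted p = 4.96e-05). Zeb2, a transcription factor of myeloid cells, was at 32.6 to 191 against 440 to 933 CPM. Notch2, a receptor needed by some cDC2, was at 217 to 376 against 91.2 to 346 CPM and did not pass (log2 0.45 ± 0.21, edgeR adjusted p = 0.139).

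Macrophages share several of these genes, among them Csf1r and Itgam. Summed, the other cDC2 genes were at 4467 to 5589 CPM in macrophages and 4795 to 6226 CPM in cDC2-marked cells. In cDC1-marked cells they were at 907 to 1357 CPM. A fall of this list therefore does not tell cDC2 from macrophages. Of 12 macrophage markers 8 were tested and all 8 fell (median −3.17). C1qc was at 27.4 to 107 CPM in cDC1-marked and 69.2 to 1352 CPM in cDC2-marked cells. Without C1q-bearing cells 0 of the 2 macrophage markers still tested passed, while 6 of 7 cDC2 genes fell (median −2.59). In the Total libraries 2 of 3 cDC2 genes fell and 0 of 2 macrophage markers passed. Leaving out C1q-bearing cells removes cells by macrophage genes, so the low count of those genes follows from it.

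The MHC class I pathway was raised in part. Of 9 tested genes 4 rose and none fell (median 0.28): Tap1 and Tap2, which form the peptide transporter, and the immunoproteasome subunits Psmb8 and Psmb9. Without C1q-bearing cells 4 of 8 class I genes rose (median 0.64), but in the Total libraries only 1 of 8 (median 0.61). Psmb9 was at 420 to 1084 CPM in cDC1-marked and 69.2 to 365 CPM in cDC2-marked cells (log2 1.89 ± 0.20, edgeR adjusted p = 1.41e-05). Of 8 tested MHC class II genes none rose and 2 fell (median 0.24). They were Ctss, a protease that trims the invariant chain, at 868 to 1845 against 3666 to 6016 CPM, and the thiol reductase gene Ifi30. The class II molecules themselves were not among the genes that passed. Of 3 tested genes common to conventional dendritic cells Kit, a growth factor receptor, and Cbfa2t3, a transcription cofactor, rose (median 1.25), and without C1q-bearing cells none of 3 passed. Of 5 costimulation and checkpoint genes Pdcd1lg2 and Havcr2 rose, at adjusted p = 0.042 and 0.0399 by edgeR, and neither passed without C1q-bearing cells.

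The 6 chemokine genes tested, of 14 listed, were all lower in cDC1-marked cells (median −2.65), among them Ccl6 at 13.1 to 54.7 against 138 to 839 CPM and Ccl17, a ligand of Ccr4, at 0 to 189 against 0 to 2042 CPM. Without C1q-bearing cells 2 of 3 fell, and in the Total libraries 0 of 2 passed (median −1.01). All 3 tested pattern recognition genes fell (median −2.62), and of 8 hypoxia and lipid genes 5 fell and Cd36, a fatty acid transporter, rose (median −1.28). The direction of that list turned without C1q-bearing cells, where 1 of 5 rose and 1 fell (median 0.24), and in the Total libraries none of 2 passed (median 1.17). Cd36 was at 659 to 2235 against 0 to 699 CPM. Of 7 tested genes of migratory and mature dendritic cells 5 fell and Cd83 rose (median −1.50), and none of 3 interferon response genes passed. Il1b, an inflammatory cytokine gene, was at 410 to 6911 against 2698 to 9615 CPM and did not pass (log2 −0.58 ± 0.27, edgeR adjusted p = 0.132).

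Among genes named by the size of their difference, those highest with a difference that held in all 6 tumours included Dpy19l3 at 120 to 266 against 0 to 62.8 CPM (log2 3.24 ± 0.36, edgeR adjusted p = 1.84e-05) and Sdad1 at 137 to 493 against 0 to 92.6 CPM (log2 2.87 ± 0.25, edgeR adjusted p = 3.88e-06). Dnase1l3, a secreted nuclease gene, was at 96.7 to 488 against 0 to 113 CPM. The septin genes Sept6 (2.86) and Sept3 (2.66), Dbn1 (2.71), Gnb4 (2.51), Ncoa7 (2.47), Tbc1d8 (2.40), Itga3 (2.34), Fgd2 (2.33) and Hepacam2 (2.31) followed on the log2 scale. In the Total libraries Hepacam2 passed (2.03, adjusted p = 0.0469 by edgeR). Ncoa7 (2.05, adjusted p = 0.114 by edgeR) and Tbc1d8 (1.42, adjusted p = 0.162) did not pass there. The other higher genes of this paragraph were not among the genes tested there. At the other end stood Tmem176a at 0 to 18.2 against 193 to 484 CPM (log2 −4.92 ± 0.40, edgeR adjusted p = 2.44e-06), Tmem176b (−4.63) and the phospholipid transfer protein gene Pltp (−4.70). S100a4, a calcium-binding protein gene that is also on the cDC2 list, was at 32.6 to 96.7 against 898 to 1799 CPM. Cd63 (−3.79), Clec4n (−3.46, also on the list of pattern recognition genes), Malt1 (−3.10), Mmp12 (−3.08) and Ccr1 (−3.07) were also lower in cDC1-marked cells of every tumour. Of these lower genes only S100a4 was tested in the Total libraries, where it passed (−3.68, edgeR adjusted p = 1.37e-05). Without C1q-bearing cells Dpy19l3, Dnase1l3, Dbn1, Gnb4, Itga3, Tmem176b, Cd63, Mmp12 and Ccr1 were not among the genes tested.

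**Figure D4:**
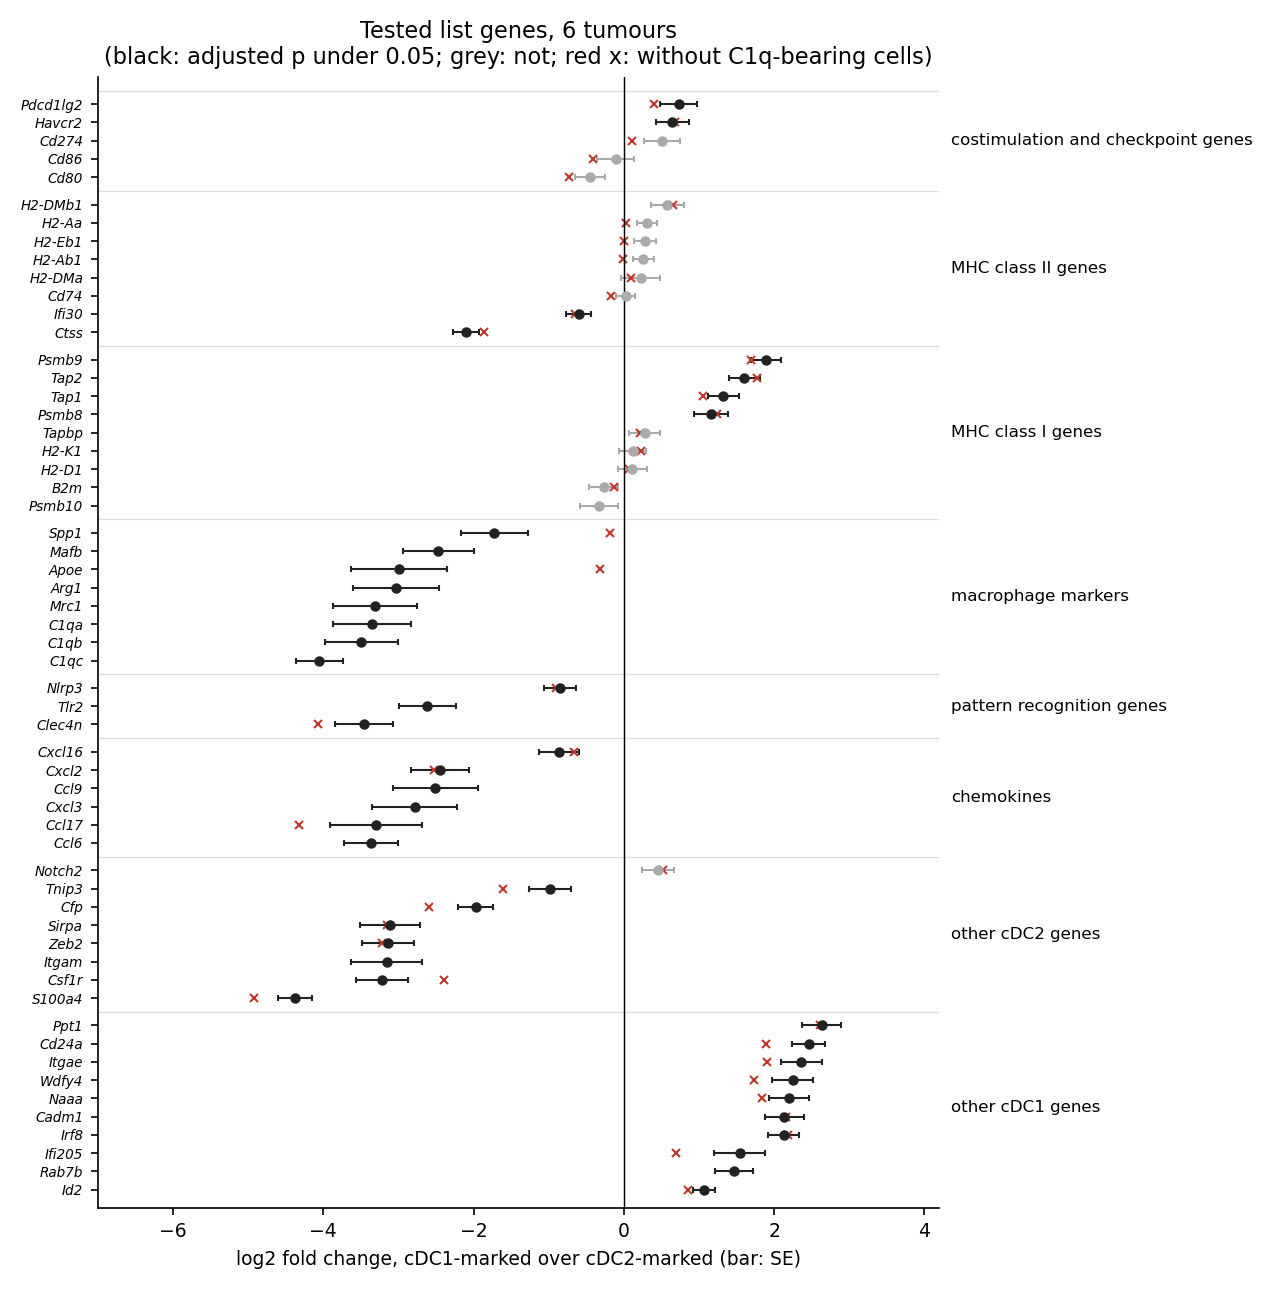
Log2 fold change of cDC1-marked over cDC2-marked members (x axis) for the tested genes of 8 lists, with the SE as a bar, black where the adjusted p was under 0.05 and grey where not; red crosses give the value without C1q-bearing cells. Irf8 stands at 2.13 and Sirpa at −3.11 with all cells.

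Differences of the members between tumours were described by the log2 ratio of CPM + 50, over genes with at least 100 CPM in either tumour. A gene was counted when the ratio passed 1 or −1 in the enriched libraries, and named when it did so the same way in the Total libraries. These ratios have no test. For scale, the Total library was set against the enriched library of the same tumour in the same way. From Clone E to parental 4T1, 0.982%, 3.4%, 0.715%, 1.28%, 1.15% and 5.94% of genes were higher and 5.56%, 7.25%, 3.87%, 7.59%, 2.26% and 5.79% lower in the Total library. Among the cDC2-marked cells alone, where only EM3 and E had at least 30 each, 35 of 2412 genes (1.45%) were higher and 22 (0.912%) lower in EM3.

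Clone M was set against Clone E to compare mesenchymal with epithelial tumours. Of 2449 genes 60 (2.45%) were higher in M, 22 of them also in the Total libraries, and 144 (5.88%) lower, 41 of them also there. Timd4, a receptor for phosphatidylserine, was at 83.2, 332, 320, 246, 806 and 396 CPM in Clone E, EM1, EM2, EM3, M and parental 4T1, highest in M and lowest in E. M over E was 2.68 on the log2 scale after enrichment, 1.52 in the Total libraries and 2.13 without C1q-bearing cells. Herpud1, a gene of the endoplasmic reticulum stress response, was at 830 CPM in M and 135 CPM in E (2.25), and Scin, an actin-severing protein gene, at 874 and 192 CPM (1.93). Pmaip1 (1.91), Lpar6 (1.64), Phc2 (1.61), Hic1 (1.60) and Avpi1 (1.56) were also higher in M. Timd4, Avpi1 and Hic1 were among the 10 leading genes of 1 cDC1-like cluster and Scin among those of another. Clusters named cDC1-like held 63.6% of the members of M and 31.4% of those of E, and macrophage-like ones 6.06% and 28.6%, and the part of this in the ratios was not tested.

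Ccl17 had 0 of 203593 UMIs in M against 474 CPM in E, at least 32.1-fold lower at a limit of 3 counts, and was at 7.73 against 823 CPM in the Total libraries. Of the Ccl17 UMIs of E, 35.4% came from 1 cell. Inhba, a subunit of activin, had 0 UMIs in M against 496 CPM in E, at least 33.7-fold lower. In E 28.8% of the Inhba UMIs came from 1 cell and the level was 208 CPM without C1q-bearing cells, and the Total libraries had 38.6 CPM in M against 141 CPM in E (−1.10). Arg1 (−3.28), Thbs1 (−2.51), Fn1 (−2.38) and Mmp19 (−2.27), genes that macrophages also express, were lower in M. Mmp19 was at −0.83 without C1q-bearing cells, so it no longer passed. Of 9 macrophage markers 7 were lower (median −2.38, and −0.57 without C1q-bearing cells). Mcpt1 and Tpsab1, mast cell protease genes, were also counted as lower, but 1 cell of Clone E held 99.8% and 99.6% of their UMIs there.

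Within the set of libraries shared by EM3 and E fewer genes differed. Of 2333 genes 19 (0.814%) were higher in EM3, 4 of them also in the Total libraries, and 12 (0.514%) lower, 6 of them also there. These 6 include the mast cell genes Mcpt1 and Tpsab1, with 99.8% and 99.6% of their UMIs in enriched Clone E from 1 cell. Irf7, a transcription factor of the type I interferon response, was at 283, 112, 181, 72.8, 177 and 143 CPM in Clone E, EM1, EM2, EM3, M and parental 4T1 (EM3 over E −1.44, and −1.99 in the Total libraries). Ly6e, an interferon-induced gene, was at 240 CPM in EM3 and 695 CPM in E (−1.36). Macrophages of the same tumours held Irf7 at 98.0 CPM in EM3 and 273 CPM in E, so the order was not limited to the members. Timd4 was higher in EM3 (1.15), as were Retnlg (1.20) and the heat shock genes Hspa1b (1.21) and Hspa1a (1.05). Of 5 tested granulocyte markers 4 were among the 19 higher genes, S100a8, S100a9, Retnlg and Lcn2 (median 1.81, and 0.01 in the Total libraries). Without C1q-bearing cells Hspa1b was at 0.67, Hspa1a at 0.23 and the chemokine gene Ccl5, at −1.17 with all cells, at −0.17. In Clone E 1 cell held 56.6% of the Hspa1b and 1 cell 57.1% of the Hspa1a UMIs. The levels of E rose from 195 to 376 CPM and from 205 to 421 CPM in that smaller set of cells.

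EM1 and EM2 are the other pair of 1 set of libraries. Of 2352 genes 14 (0.595%) were higher in EM1, 4 of them also in the Total libraries, and 18 (0.765%) lower, 0 of them also there. The ratio farthest from 0 was that of Ighm, an antibody gene, at −6.74, with 99.4% of its UMIs in EM2 in 1 cell. Cyp26b1, an enzyme that degrades retinoic acid, was at 110, 423, 28.2, 44.2, 93.3 and 45.4 CPM in Clone E, EM1, EM2, EM3, M and parental 4T1. EM1 over EM2 was 2.60, and 3.31 in the Total libraries. In the latter it was at 642 CPM in EM1, 527 CPM in E and 515 CPM in EM3, so that E and EM3 stood far higher there than after enrichment. Cd36 was at 1058 CPM in EM1 and 388 CPM in EM2 (1.34), and Rnf217 (1.16) and Gclm (1.04), a subunit of the enzyme that makes glutathione's precursor, were also higher in EM1.

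For parental 4T1 against M, of 2387 genes 59 (2.47%) were higher in parental 4T1, 19 of them also in the Total libraries, and 39 (1.63%) lower, 13 of them also there. The Total library of parental 4T1 held only 12 members with 44470 UMIs. There 229 of 2650 genes were higher and 201 lower than in M, so passing there is a weak check. Mgl2, which helped cut the classes, was at 889 and 206 CPM (1.87), and Clec10a, which may share reads with it, at 253 and 44.2 CPM (1.69). Clec10a was the only 1 of 10 other cDC2 genes past the fold, and Wdfy4 the only 1 of 11 other cDC1 genes. Il1b was at 5739, 4830, 6182, 6614, 2422 and 7718 CPM in Clone E, EM1, EM2, EM3, M and parental 4T1, lowest in M (parental 4T1 over M 1.65, and 2.30 in the Total libraries). Ccl17 was at 960 CPM against 0, at least 65.1-fold higher, with 68.9% of its UMIs in 1 cell. In the Total libraries Ccl17 and Pgf were each at 90.0 CPM against 7.73 CPM, on few UMIs. Pgf (2.23), Mt2 (1.72), Cish (1.52) and Plaur (1.38) were also higher, and Pgf was at 0.67 without C1q-bearing cells. Wdfy4 (−1.08) and Dnase1l3 (−1.28) were lower in parental 4T1, as were Serpinb6b (−1.26), Arhgap25 (−1.19), Mbd1 (−1.14) and Icam1 (−1.09). In the small Total library of parental 4T1, Serpinb6b, Arhgap25 and Icam1 were at 0 CPM and Mbd1 and Dnase1l3 at 22.5 CPM. Without C1q-bearing cells Wdfy4 (−0.90), Mbd1 (−0.93) and Icam1 (−0.98) no longer passed the fold. S100a8 (−2.19) and S100a9 (−2.25) were lower too, with 77.6% of the S100a9 UMIs of M in 1 cell.

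**Figure D5:**
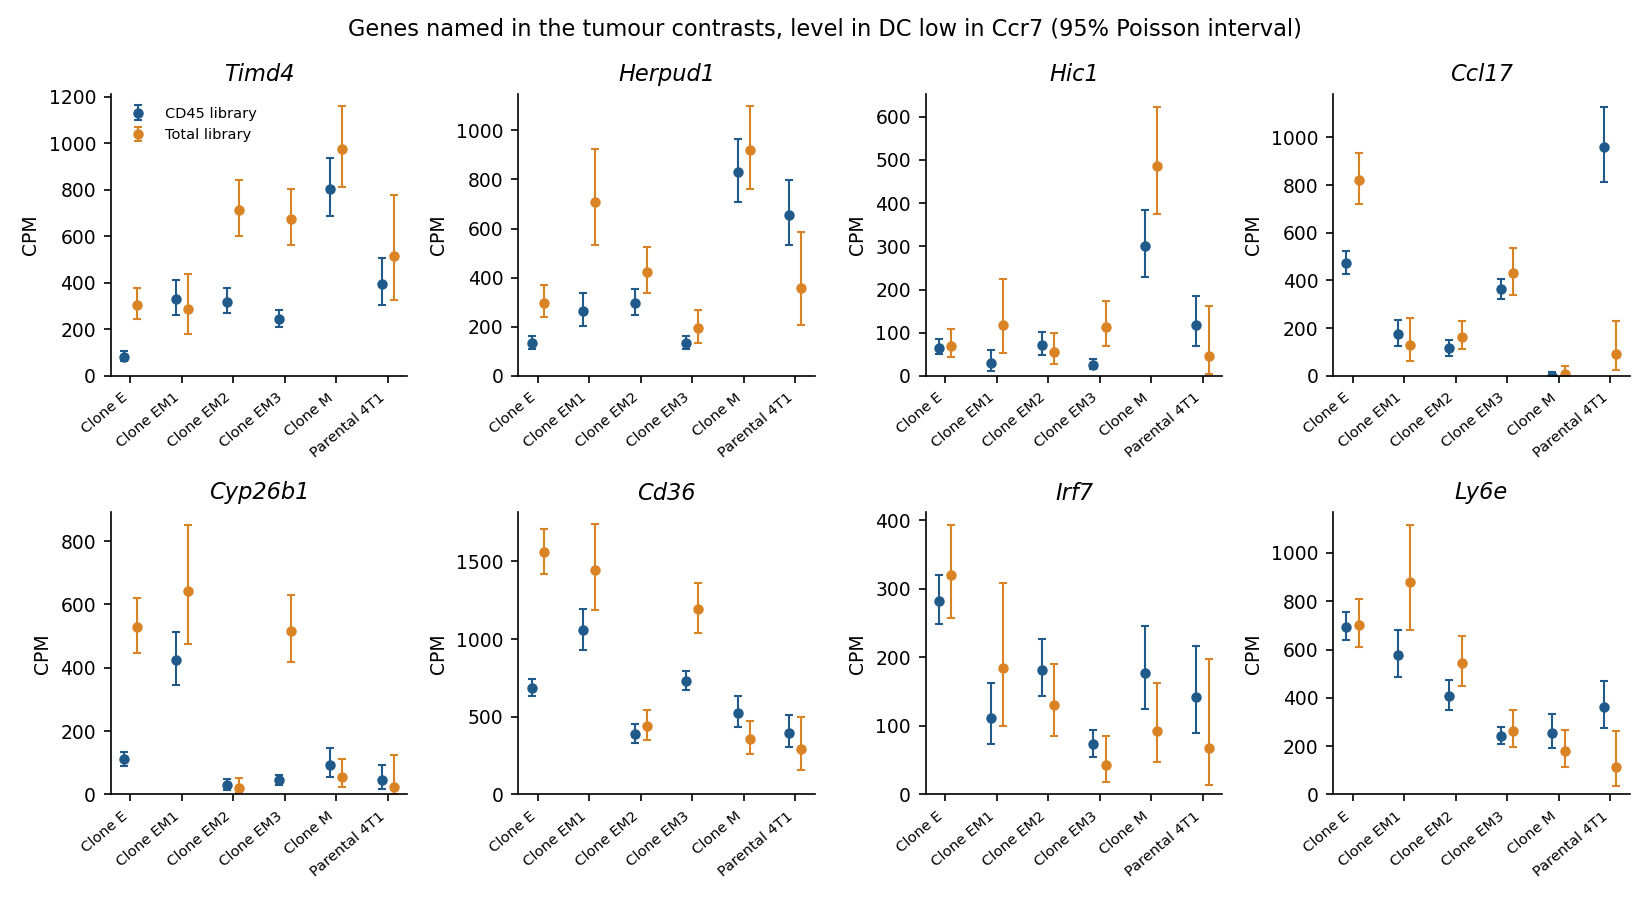
Level in CPM, with 95% Poisson intervals, of 8 genes named in the contrasts between tumours, in the members of each tumour and both kinds of library. Timd4 is highest in Clone M at 806 CPM after enrichment and Cyp26b1 highest in Clone EM1 at 423 CPM.

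Whether the content followed the EMT state or CD8 T cells was asked across the 6 tumours in 4 relations. The EMT score, the mean log2 level of mesenchymal minus epithelial genes in tumour cells, was −1.97, 1.46, 2.07, 3.36, 2.73 and 1.09. EM3 thus scored above M. The cDC1-marked share of CD45-enriched cells had r = −0.21 (rho 0.03) with the score, by a two-sided exact permutation test p = 0.682 (n = 6, adjusted p = 0.682). With the CD8 T cell share r was 0.38 (rho 0.43, exact permutation p = 0.457, adjusted p = 0.665), and it was −0.92 without M and parental 4T1, the 2 tumours farthest from the median of that share. Without E and EM3, the farthest in the score, r of the score was 0.44 with cDC1-marked and −0.74 with cDC2-marked cells. The cDC2-marked share had r = −0.35 with the score (exact permutation p = 0.499) and 0.40 with CD8 T cells (exact permutation p = 0.407), both with an adjusted p of 0.665, and the latter was −0.02 without M and parental 4T1. With granulocytes left out of the denominator the 4 relations had adjusted p of 0.819 to 0.889 by the same exact permutation test. There r of the score with cDC1-marked cells was −0.07, and 0.90 without E and EM3, and r of CD8 T cells with cDC2-marked cells was 0.39, and 0.49 without EM3 and parental 4T1. No relation was detectable over 6 tumours, and each r without 2 tumours rests on 4.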

How the data were processed

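Single-cell RNA was measured in 6 mouse tumours, 1 per group, each with a Total and a CD45-enriched library. The authors deposited whole-number UMI count tables with cell annotation; Cell Ranger and mm10 are named per the submitters' processing notes, and annotation of genes was not given in the sources used here. The labels name both a fixed-RNA preparation and 3' reagents. Doublets were called by the Scrublet method (2 simulated pairs a cell, 1 limit of 0.248), which marked 3012 of 115612 cells (2.61%). That limit was the median of the limits found library by library. They were 0.632 to 0.676 in the CD45-enriched libraries of EM3, M and parental 4T1 and 0.189 to 0.276 in the others. Counts were summed per tumour and class and tested with edgeR 4.0.16 (TMM, filterByExpr, tumour as block), with DESeq2 1.42.0 as an alternative. The block follows from shared animals; residuals of the 2 classes of a tumour correlated at 0.03 to 0.25, and in EM2, EM3 and parental 4T1 another tumour correlated more. On simulated counts 190 of 190 genes changed 4-fold were recovered, with 3 false calls among 2093 genes. The simulation gave all genes 1 common dispersion (0.0465) and no tumour effect, and changed only genes that pass the filter. It therefore does not measure the share of false calls in the real data. Clusters came from scanpy 1.11.5 (1000 variable genes, 20 components, 15 neighbours, Leiden resolution 1.0). Genes were named by rule: the 15 highest and 15 lowest log2 differences called and alike in all 6 tumours, the 8 highest and 8 lowest ratios per tumour contrast past the fold in both libraries, and list members. Members, lists and rules were chosen with earlier results of these data known.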

Additional observations from a re-analysis of the deposited data

How the results depend on the processing

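Among recomputed values with a direction (differences in shares, named genes and the 4 relations with granulocytes left out) none reversed. Shares, levels and gene counts could not reverse. Of 296 recomputed edgeR differences of named genes, 293 kept direction and passed and 3 kept direction only. Named genes of the tumour contrasts were chosen for the same direction in Total libraries, which fixed that check. The r values without 2 tumours were not counted here, and some changed sign. Of the list medians, 36 of 100 changed sign in Total libraries, including 14 of 22 for EM1 over EM2, and 17 of 104 without C1q-bearing cells, among them hypoxia and lipid genes (−1.28, then 1.17 and 0.24), Xcr1 and Clec9a for M over E (0.65, then −0.86 and −0.02), and, in Total libraries alone, other cDC1 genes for M over E (0.57, then −0.15). Of the genes past the fold 1 for M over E, 2 for EM1 over EM2 and 4 for parental 4T1 over M passed it the other way in Total libraries. The share of dendritic cells below the limit (36.3%) was 28.2% at under 1 UMI, 44.8% at under 4, 54.5% with cells thinned to 1000 UMIs, 30.2% in Total libraries, 25.6% among cells that SingleR also called DC, 22.7% with C1q-bearing cells taken out of the members only, which lowers it by construction, and 32.6% with them taken out of all cells too. For members as a share of CD45-enriched or, in Total libraries, immune cells, M minus E (−0.881 points) was −0.346, −0.167, −0.387 and −0.787 under the last 4. The cDC1-marked share (26.5%) was 7.69% and 17.2% at 1000 and 2000 UMIs, 35.2% at 1 UMI, 36.0% with 5 markers a class, 22.3% with doublets kept, 35.9% without C1q-bearing cells, 45.0% in Total libraries and 43.4% by clusters. The cDC2-marked share (26.3%) was 15.4%, 20.3%, 33.9% and 47.9% under the first 4 and 9.11% by Cd209a alone. Over all tumours, Xcr1, Clec9a and Cd209a were at 239, 393 and 116 CPM in Total libraries, and with doublets kept Xcr1, Clec9a, Cd209a and Mgl2 at 112, 149, 47.3 and 433; as a mean over cells Clec9a, Cd209a and Mgl2 were at 221, 91.8 and 619. The edgeR counts, higher and lower, were 469 and 663 with no filter, 45 and 51 in Total libraries, 137 and 158 without C1q-bearing cells, 130 and 147 with cDC2 by Cd209a alone, 275 and 311 with no replicate block, 248 and 252 by DESeq2, and 199 to 350 and 235 to 364 leaving out each tumour. With a pseudocount of 10 the counts were 121 and 223 for M over E, 29 and 20 for EM3 over E, 48 and 42 for EM1 over EM2, and 126 and 96 for parental 4T1 over M. In Total libraries 91 genes were lower in M than E and 27 in EM3 than E, with 60 and 82 for EM1 over EM2 and 229 and 201 for parental 4T1 over M. Without C1q-bearing cells 80 were lower in M than E, 39 higher in EM1 than EM2 and 59 lower in parental 4T1 than M. The causes of these changes were not tested. Settings that use C1q, Cd3, SingleR or Cd209a alone were added after seeing the data. Small cell numbers, 4 cDC2-marked in M and 7 cDC1-marked in parental 4T1, limit every tumour value.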

Other observations

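Il1b in the cDC1-marked members was at 4228, 4050, 5358, 6785, 410 and 6911 CPM in Clone E, EM1, EM2, EM3, M and parental 4T1, so M stood below the other 5 within the class as well. M was again lowest in the Total libraries, at 519 CPM, against 1633 to 4736 CPM. In macrophages Il1b was at 1684 CPM in M and 3406 to 6562 CPM in the others.

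Cd207, the lectin langerin, was at 27.0, 104, 148, 14.3, 285 and 195 CPM in the members of Clone E, EM1, EM2, EM3, M and parental 4T1. In the Total libraries it was at 10.5, 157, 94.9, 42.9, 23.2 and 0 CPM, an order that differs from that after enrichment. Il12b, a cytokine subunit gene, was at 0 to 20.7 CPM in the members and at 55.8 to 335 CPM in the dendritic cells with 2 or more UMIs of Ccr7 plus Fscn1. Ccr7 and Fscn1 separate these 2 sets of cells by rule, and Il12b was given as a level with no test.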
